A study of Mus musculus with 14 samples.

Results

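The TGF-beta ligands, receptors and SMADs were examined as 9 genes: the ligands Tgfb1, Tgfb2 and Tgfb3, the receptors Tgfbr1 and Tgfbr2, and the intracellular mediators Smad2, Smad3, Smad4 and Smad7. All peaks from 50 kb before to 50 kb after each gene body (mm9) were taken, and overlapping or touching peaks of the 7 peak lists were merged into regions. This gave 153 regions of the 108795 in the genome, built from 740 of 463526 peaks. The cells were 4T1, a mouse mammary tumor line, profiled by bulk ATAC-seq, in which a transposase inserts sequencing adapters into accessible DNA. The hypoxia groups had spent 6, 12, 24, 36, 48 or 72 h at 1% oxygen and were set against normoxia, with 2 replicates a group and 14 samples in all. Lists of hypoxia values below follow these times in that order. The labels state for each sample that no antibody was used, whereas the study's text describes staining of the time course for the HIF1α protein before ATAC-seq. The labels give no oxygen level for normoxia and repeat the 1% oxygen protocol for those samples, and the study's legend on the protein staining gives its control an oxygen level below that of air, so how far normoxia and hypoxia differed in oxygen is not settled here. The deposited lists pool both replicates of a group, so there is 1 list per group, no replicate error and no test of a difference between conditions at a single region.

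TGF-beta ligands are secreted in a latent form and, once released, bring together the type II receptor (Tgfbr2) and the type I receptor (Tgfbr1), both serine/threonine kinases. The type I receptor phosphorylates SMAD2 and SMAD3, which enter the nucleus with the common partner SMAD4 and bind DNA beside other factors, often AP-1. SMAD7 blocks the type I receptor and is itself induced by the pathway. In mammary epithelium TGF-beta restrains growth, and in mammary tumor cells it is known for driving the loss of epithelial character and spread.

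The lists differed in depth. They held 49006 to 81732 peaks, and the genome background, the fewest reads expected at any summit, was 0.926 reads in normoxia and 3.25, 2.34, 1.85, 2.22, 2.52 and 2.52 reads at 6 to 72 h. The fewest reads at a called summit were 5 in normoxia and 11, 8, 7, 8, 9 and 9 at those times. This minimum was highest at 6 h, the list with the highest background and the fewest peaks. These minima are raw counts, not scaled for depth. They do not show whether a weak site was harder to list at 12 to 72 h than in normoxia. Of the 6 epithelial markers, 5 (Epcam, Cdh1, Krt8, Krt18 and Krt19) had a promoter peak in all 7 lists and Cldn7 had none in any. Of the immune markers, Ptprc and Cd3e had none, Lyz2 had 1 at 36 h alone and Csf1r had a peak in all 7 lists. Of the 5 fibroblast and endothelial markers, Pdgfra had a peak in all 7 lists, Pdgfrb and Cdh5 had none, Pecam1 had peaks at 12, 36 and 48 h and Col1a1 at 12 to 72 h.

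Sequences are given for the regions on which the account below turns, as the summit with 100 bases on either side, on the forward strand of mm9, 5′ to 3′. Capitals mark matches, on either strand, to AP-1 (TGANTCA), TEAD (GGAATG), HIF (ACGTG), SMAD (CAGACA), RUNX (TGTGGT) or CEBP (TTGCNNAA). The opening set is the 3 of 153 regions listed at every hypoxia time but not in normoxia (1.96%, exact 95% interval 0.406 to 5.62%; 1.5% of all regions of the genome). They are Tgfb2 +31.2 kb (chr1:188498609-188498809), Tgfb2 +78.3 kb (chr1:188451465-188451665) and Tgfb3 +39.2 kb (chr12:87380648-87380848), where the distance runs from the start of the gene in the direction of transcription.
Tgfb2 +31.2 kb: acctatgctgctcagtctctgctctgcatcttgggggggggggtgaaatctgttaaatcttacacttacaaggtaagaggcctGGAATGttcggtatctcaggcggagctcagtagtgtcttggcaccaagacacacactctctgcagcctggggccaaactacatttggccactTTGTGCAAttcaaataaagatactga
Tgfb2 +78.3 kb: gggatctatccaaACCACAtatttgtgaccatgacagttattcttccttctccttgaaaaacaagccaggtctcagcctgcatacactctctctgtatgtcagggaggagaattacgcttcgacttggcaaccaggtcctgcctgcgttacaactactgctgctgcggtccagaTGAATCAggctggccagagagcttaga
Tgfb3 +39.2 kb: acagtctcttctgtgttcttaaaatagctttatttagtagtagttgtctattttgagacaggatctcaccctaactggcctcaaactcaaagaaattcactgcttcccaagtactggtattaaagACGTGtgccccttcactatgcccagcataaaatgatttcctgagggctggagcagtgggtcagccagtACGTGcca
Next comes the region with the most summit reads of the 4 called in normoxia alone (2.61%; 2.75% of all regions), Tgfbr2 +6.3 kb (chr9:116077979-116078179).
Tgfbr2 +6.3 kb: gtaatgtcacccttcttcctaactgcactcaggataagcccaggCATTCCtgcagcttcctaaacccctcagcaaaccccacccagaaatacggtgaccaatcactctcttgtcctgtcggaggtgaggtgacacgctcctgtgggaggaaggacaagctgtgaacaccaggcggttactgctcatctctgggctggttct
The last set holds intronic or intergenic regions open in every list: the strongest non-promoter regions of Tgfb2 (+95.8 kb, chr1:188433952-188434152) and Tgfbr2 (+22.2 kb, chr9:116062060-116062260), the Tgfbr2 intron with the lowest ratio of hypoxia to normoxia (+21.2 kb, chr9:116063066-116063266) and a Tgfb3 intron with one of the highest (+12.1 kb, chr12:87407793-87407993).
Tgfb2 +95.8 kb: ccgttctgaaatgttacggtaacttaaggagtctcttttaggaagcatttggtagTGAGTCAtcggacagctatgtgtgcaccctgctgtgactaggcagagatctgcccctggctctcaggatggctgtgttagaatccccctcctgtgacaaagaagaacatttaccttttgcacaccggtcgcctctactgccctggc
Tgfbr2 +22.2 kb: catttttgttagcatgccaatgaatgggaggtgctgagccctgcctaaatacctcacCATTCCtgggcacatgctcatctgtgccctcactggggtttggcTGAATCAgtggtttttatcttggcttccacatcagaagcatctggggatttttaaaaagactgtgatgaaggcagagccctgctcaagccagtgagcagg
Tgfbr2 +21.2 kb: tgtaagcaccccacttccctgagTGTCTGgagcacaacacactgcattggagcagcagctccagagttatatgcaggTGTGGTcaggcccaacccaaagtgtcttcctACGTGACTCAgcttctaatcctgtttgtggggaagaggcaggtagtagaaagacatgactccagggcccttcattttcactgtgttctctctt
Tgfb3 +12.1 kb: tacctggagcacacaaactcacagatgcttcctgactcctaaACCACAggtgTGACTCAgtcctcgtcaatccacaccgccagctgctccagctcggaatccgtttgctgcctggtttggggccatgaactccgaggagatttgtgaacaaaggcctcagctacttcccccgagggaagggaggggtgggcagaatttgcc
Each region of the last set held an AP-1 match, but these were picked for display: of the 14 named regions outside promoters with a peak in all 7 lists, 8 held one and 6 did not, and the share over all regions of the genome was 37.5%. The 3 regions gained in hypoxia differed among themselves: Tgfb2 +31.2 kb held a TEAD and a CEBP match, Tgfb2 +78.3 kb a RUNX and an AP-1 match, and Tgfb3 +39.2 kb held 2 HIF matches and none of the others. Tgfbr2 +6.3 kb held a TEAD match. In Tgfbr2 +21.2 kb the HIF and AP-1 matches overlapped. A match describes these letters only and is no evidence of binding.

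Open chromatin was spread unevenly over the 9 genes. Smad3 had 26 regions, Tgfbr2 25, Tgfb2 24, Tgfb3 18, Tgfbr1 15, Smad7 14, Tgfb1 12, Smad4 11 and Smad2 8. Per 100 kb of window these were 14.7 regions for Tgfb3, 13.1 for Tgfb2, 13.1 for Tgfbr2 and 12.3 for Smad3, against 6.68 for Smad4 and 4.87 for Smad2, where the median over all protein-coding genes was 5.81. Smad2 was the sole member under that median. Of the 153 regions, 17 were promoter regions of a member, meaning within 1 kb of an annotated start, 45 lay in its introns, 3 in its exons, 9 at promoters of other genes, 27 within other genes and 52 between genes. The nearest start belonged to the member for 120 regions. In the Tgfb1 window it did so for 3 of 12 regions; the promoters of Bckdha, Exosc5, B9d2, Ccdc97 and Hnrnpul1 also lie there.

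**Figure D1:**
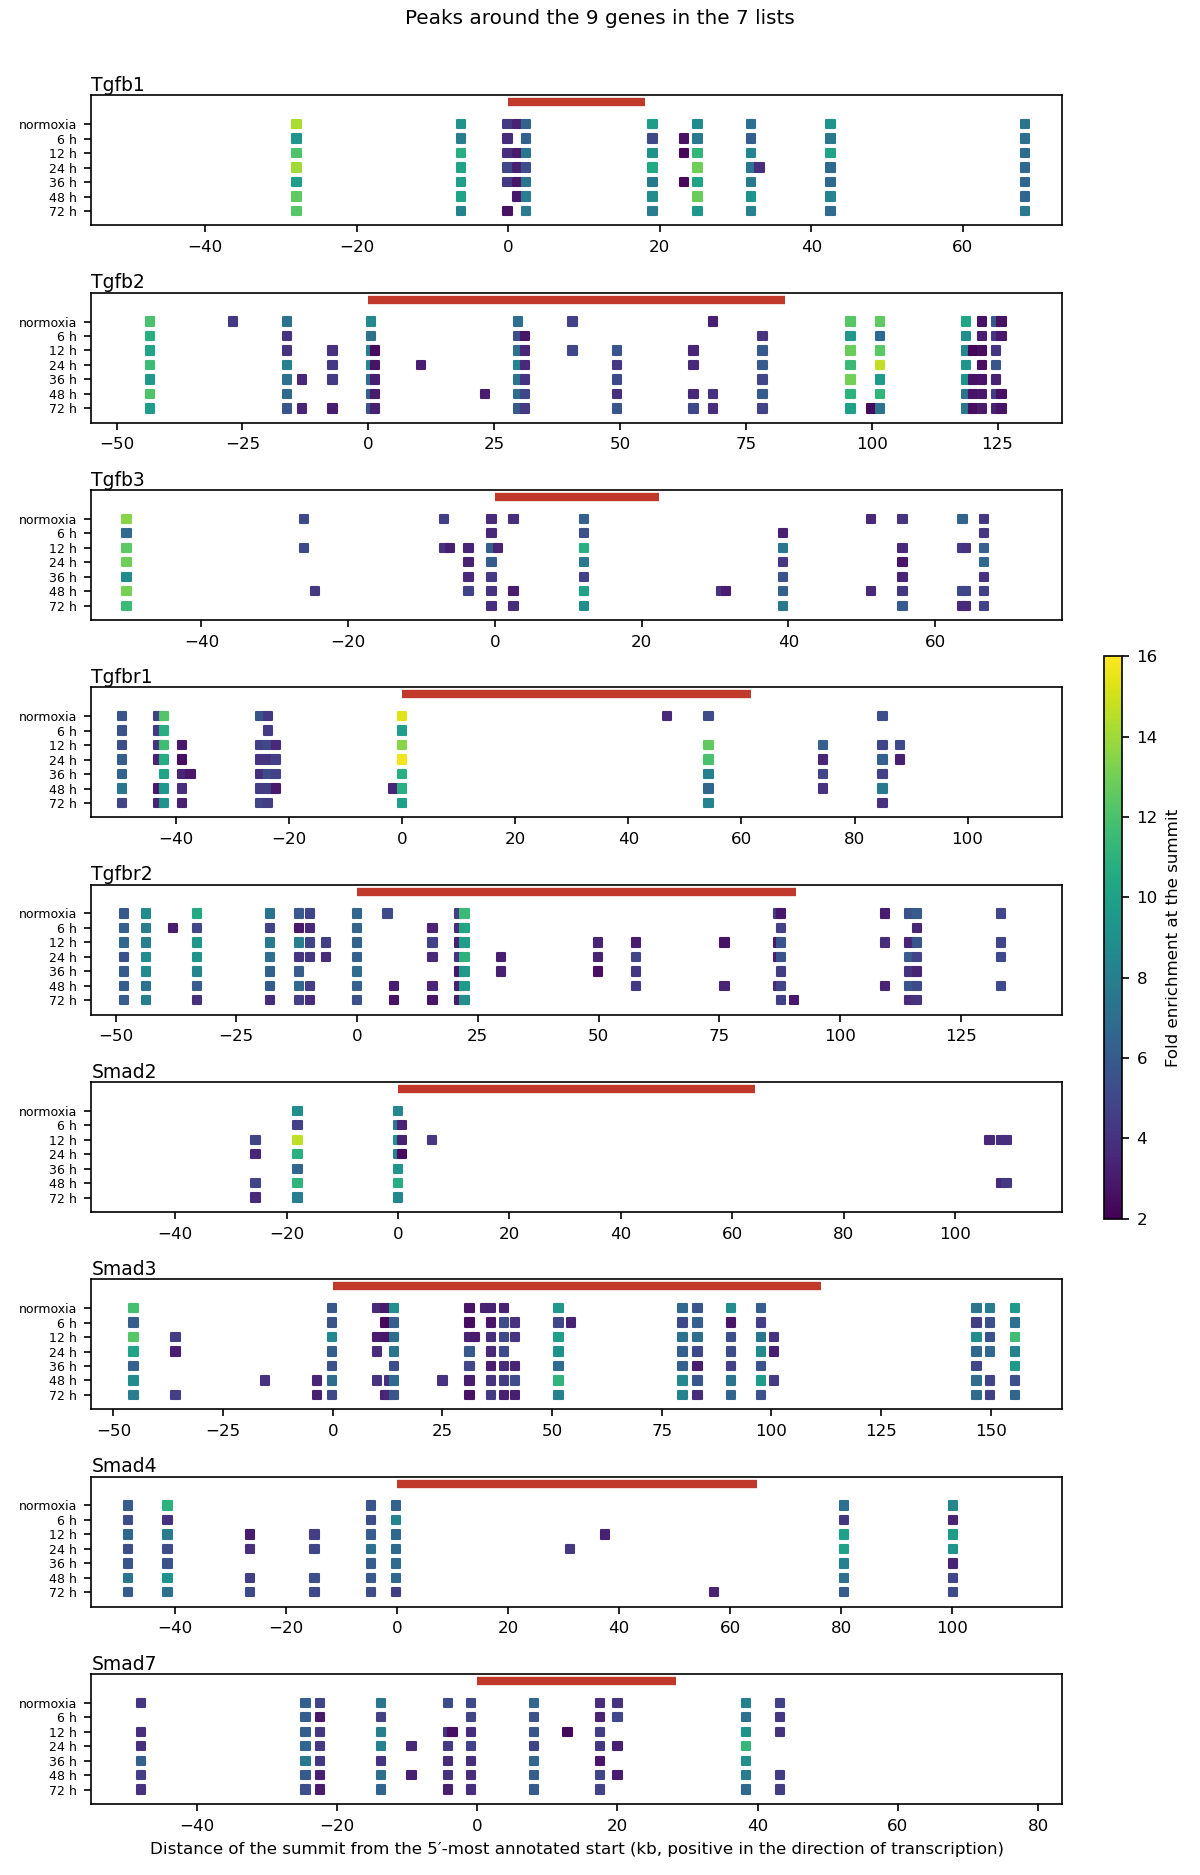
Peaks around the 9 genes, 1 panel per gene. The horizontal axis is the distance of the summit from the gene start in kb, positive in the direction of transcription, each row is a peak list from normoxia to 72 h, each square is a region with a peak in that list, the colour is the fold enrichment at its summit and the red bar is the gene body. Smad3, Tgfbr2 and Tgfb2 carried 26, 25 and 24 regions and Smad2 carried 8.

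A peak in all 7 lists was found at 63 of the 153 regions (41.2%, exact 95% interval 33.3 to 49.4%), and the share of all regions was 33.2%. They numbered 13 at Smad3, 10 at Tgfbr2, 9 at Tgfb2, 8 at Tgfb1, 7 at Smad7, 6 at Smad4, 4 at Tgfb3, 4 at Tgfbr1 and 2 at Smad2. Regions seen in 1 list only were 28 of 153 (18.3%, background 26.6%). The 6 h list alone lacked 7 regions that all other lists held (4.58%, background 3.95%), 3 of them at Tgfbr1. The shares that follow are over regions, which share lists and neighbourhoods and are not replicates, and their intervals cover counting error only.

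Regions gained in hypoxia, with a peak at that time and none in normoxia, made up 8.74, 28.8, 22.3, 16.1, 26 and 19.7% of the regions present in either list, at 6 to 72 h. The shares over the whole genome were 10, 32.2, 25.5, 19.8, 27.4 and 22.8%. Regions lost in hypoxia, with a normoxia peak alone of that pair of lists, made up 22.3, 6.82, 12.4, 19.6, 7.09 and 12%. Over the whole genome these were 27, 6.09, 10.4, 16.2, 9.41 and 17.5%. Each genome share lay within the exact 95% interval of the share at the 9 genes. Gains were highest and losses lowest at 12 h, the list with the most peaks, and losses were highest at 6 h, the list with the fewest peaks and the highest background. With the 20000 strongest peaks of each list, gains were 18.4% at 6 h and 11.4% at 12 h, and none of the regions was then listed at every hypoxia time but not in normoxia. Over all times, 8 regions were listed in 5 or 6 hypoxia lists but not in normoxia (5.23%; 4.62% of all regions), and 8 were listed in normoxia and at no more than 1 hypoxia time (5.23%; 4.76% of all regions).

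**Figure D2:**
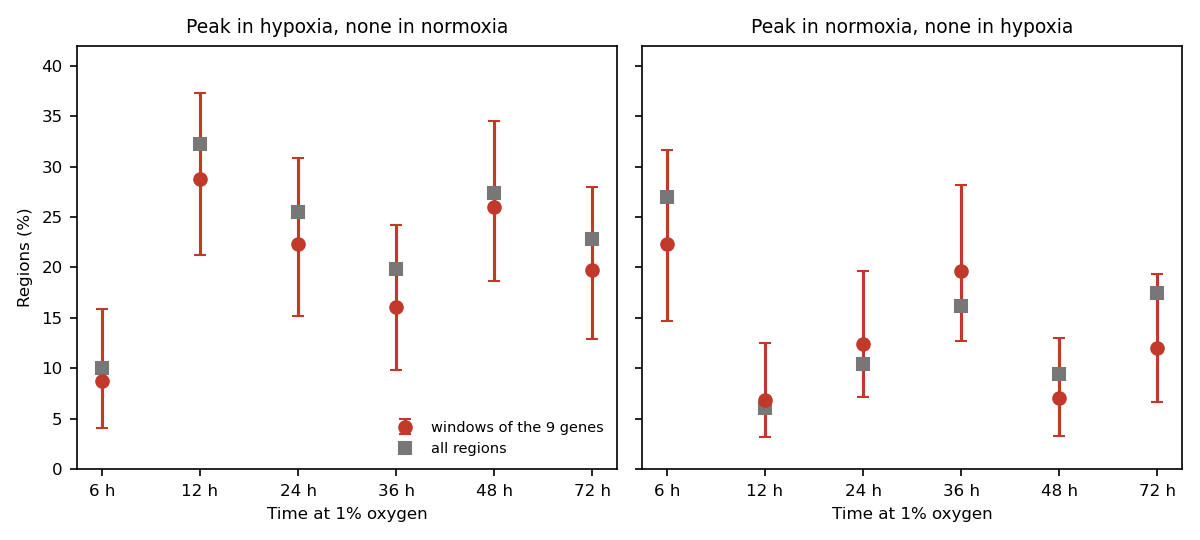
Share of regions with a peak in hypoxia and none in normoxia (left panel) and with a peak in normoxia and none in hypoxia (right panel), in percent of the regions with a peak in either list, by hours at 1% oxygen. Circles are the windows of the 9 genes with exact 95% intervals for counting error and squares are all regions; every square lies within the interval beside it.

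Among the ligands, Tgfb2 had 2 regions listed at every hypoxia time but not in normoxia, Tgfb3 had 1 and Tgfb1 had 0. Over the whole genome 1.5% of regions were so listed. With the 20000 strongest peaks of each list, no region of the 9 genes was so listed. Hypoxia peaks without a normoxia peak were at 11 of 24 Tgfb2 regions, 8 of 18 at Tgfb3 and 2 of 12 at Tgfb1. Tgfb2 had 13 regions listed in normoxia and 12, 17, 16, 16, 18 and 20 at 6 to 72 h. Its intron at +31.2 kb (chr1:188498112-188498898) had no peak in normoxia and a fold enrichment over local background of 2.81, 3.44, 3.57, 4.03, 4.99 and 4.35 at 6 to 72 h. Its intron at +78.3 kb (chr1:188451127-188451829) had no peak in normoxia and folds of 4.09, 5.84, 5.97, 4.94, 5.93 and 4.78 at the same times. Both sites were therefore listed from 6 h on, although the 6 h list was the least sensitive. Scaled to the depth of the normoxia list, the mean hypoxia summit would hold 23.9 reads at +31.2 kb and 12.7 reads at +78.3 kb. The fewest reads at any normoxia summit were 5, but peaks are called against local background, so that minimum need not hold here. At +31.2 kb, with folds of 2.81 to 4.99, whether normoxia could have listed such a summit was not tested. At +31.2 kb the summits of the 6 lists were spread over 480 bases, whereas at +78.3 kb they lay within 113 bases.

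A further pair of Tgfb2 regions had peaks at 12 to 72 h and none in normoxia or at 6 h. The intron at +49.4 kb (chr1:188480119-188480688) had folds of 5.61, 4.22, 5.08, 3.93 and 5.65 at 12, 24, 36, 48 and 72 h. A weak region beside the promoter, at +1.33 kb (chr1:188528148-188528662), had folds of 2.4, 2.69, 3.05, 3 and 3.21. In the other direction, the intron at +40.6 kb had a fold of 4.97 at 12 h and 4.67 in normoxia and no peak at the other 5 times. Among the Tgfb2 regions open in all lists, 4 of 9 had fewer scaled summit reads than normoxia at all 6 times (the promoter among them, with a 24 h ratio that rounds to 0.00) and 1 had more, the intron at +29.7 kb, a region chosen after its values were seen, with log2 ratios of 0.32, 0.36, 0.79, 0.44, 0.52 and 0.62.

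The main Tgfb2 promoter peak (+0.571 kb, chr1:188528845-188529914) was open throughout, with a fold of 8.58 in normoxia and of 7.23, 8.03, 8.57, 7.08, 6.35 and 5.56 at 6 to 72 h. Its values at 48 and 72 h were the lowest of the 7. The strongest region of the locus outside promoters, at +95.8 kb in the intergenic DNA beyond the 3′ end of the gene, had a fold of 12.3 in normoxia and of 9.4, 12.8, 11.5, 13, 11 and 10 in hypoxia. Its summit reads, scaled as described below, differed from normoxia by −0.11, 0.03, −0.21, 0.22, 0.10 and 0.51 on the log2 scale, and the interval of the last, 0.03 to 1.00, was the only one of the 6 that left out 0.

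**Figure D3:**
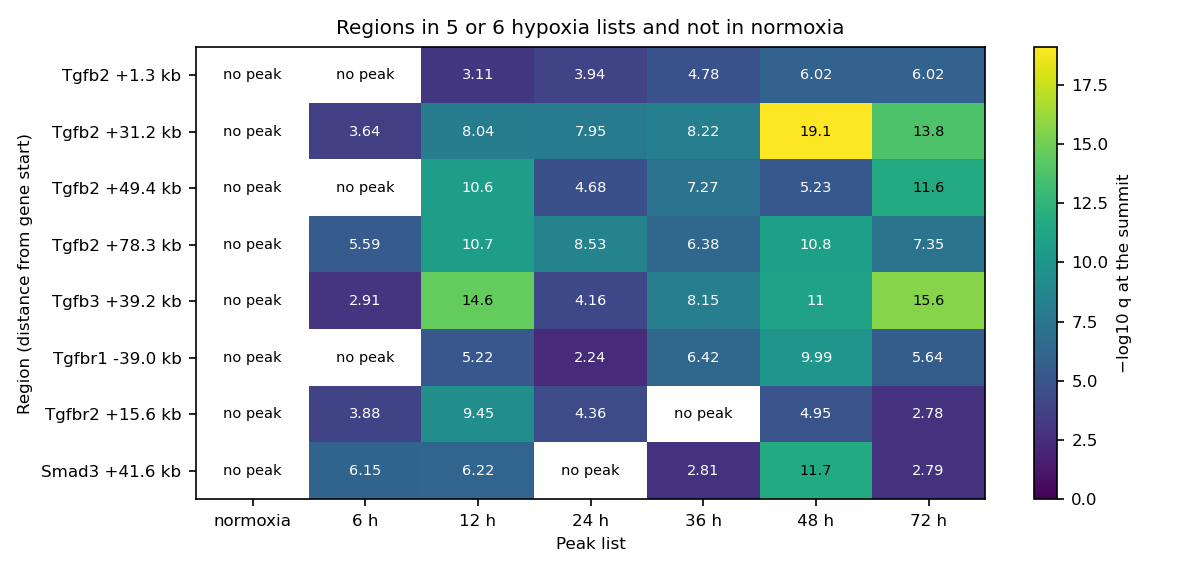
The 8 regions with a peak in 5 or 6 hypoxia lists and none in normoxia, 1 row per region named by gene and distance from the gene start, and 1 column per peak list. Colour and printed value are −log10 q at the summit, and white cells had no peak; 4 of the 8 rows belong to Tgfb2, and Tgfb2 +31.2 kb at 48 h has the highest value, 19.1.

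Tgfb3 had the densest window, set within neighbouring genes: 13 of its 18 regions lie in introns or exons of Ttll5 and 1700019E19Rik. The region at +39.2 kb (chr12:87380080-87381135), in a Ttll5 intron, had no peak in normoxia and folds of 3.29, 7.48, 4.22, 5.59, 6.25 and 7.67 at 6 to 72 h. The mean of these summits, scaled to normoxia, would be 12.6 reads. Because it lies within another gene, this region cannot be given to Tgfb3 from position alone. Upstream, the 1700019E19Rik introns at −26 kb and −6.94 kb had peaks at 12 h, with folds of 5.09 and 4.02, and in normoxia, with folds of 5.05 and 4.59, and none at the other 5 times. At the depth of the 6 h list 10.4 and 10 reads were expected from their 12 h and normoxia summits, both under the fewest reads that list called.

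The Tgfb3 promoter (−0.462 kb, chr12:87419839-87420680) was weak, with a fold of 3.71 in normoxia and of 3.57, 6.19, 5.97, 4.39, 4.06 and 3.93 in hypoxia. The values at 12 and 24 h were the highest. Its scaled reads were higher than in normoxia at all 6 times, with log2 ratios of 0.81, 0.73, 0.65, 0.50, 0.08 and 0.60, on 22 to 38 reads in hypoxia and 12 in normoxia, and each counting interval included 0. The intron at +12.1 kb behaved alike at 5 of the 6 times, with log2 ratios of 0.75, 0.74, 0.36, −0.03, 0.84 and 1.05, of which the last had an interval of 0.01 to 2.19. That intron was named for its high mean ratio, so this interval is no test. The strongest region near Tgfb3, at −50.2 kb, lay at the edge of the window in a 1700019E19Rik intron and was lower than in normoxia at all 6 times, by a mean of −0.56.

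Tgfb1, the ligand most often studied in tumors, had 3 neighbouring promoter regions. The strongest (+2.37 kb, chr7:26473931-26474686) belongs to an internal start and had a fold of 6.36 in normoxia and of 6.31, 7.5, 5.37, 7.41, 7.88 and 7.85 in hypoxia. It was higher than in normoxia at 5 of 6 times on scaled reads, and at 36 h the log2 ratio of 0.75 had an interval of 0.07 to 1.46. The peak at the upstream start itself (−0.114 kb, named after its values were seen, as are the upstream promoters of Smad3 and Smad7 below) was weaker, with a fold of 4.28 in normoxia and of 3.74, 3.9, 5, 4.32 and 2.65 at 6, 12, 24, 36 and 72 h, and no peak at 48 h. The largest increase at any region of the 9 genes that was open in all lists fell in this window, at +25 kb (chr7:26496639-26497357), in an exon of Ccdc97. There 26 summit reads were counted in normoxia and 50, 98, 93, 70, 104 and 80 in hypoxia, which gave log2 ratios of 0.69, 0.98, 1.26, 1.05, 1.21 and 1.22. The intervals at 12 to 72 h all lay above 0, and the mean of 1.07 was just outside the middle 95% of all regions open in every list, −0.65 to 1.02. Because this region was named for its high mean ratio, neither its intervals nor its place outside that band is a test.

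The receptor promoters differed in height. On scaled reads their mean log2 ratios over the 6 times were alike, −0.24 at Tgfbr1 and −0.21 at Tgfbr2. The Tgfbr1 promoter (−0.086 kb, chr4:47365632-47366543) was the strongest promoter of the 9 genes, with a fold of 15.3 in normoxia and of 9.78, 13.5, 15.7, 10.8, 10.8 and 9.91 in hypoxia. Its scaled reads fell by 0.70 at 48 h on the log2 scale (interval −1.21 to −0.19), and at the other 5 times the interval included 0. The Tgfbr2 promoter (−0.037 kb, chr9:116083381-116085360) was a broad peak of intermediate height that varied little, with a fold of 6.62 in normoxia and of 6.47, 6.41, 6.24, 6.92, 6.17 and 5.49 in hypoxia.

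Around Tgfbr2, several regions were lower in hypoxia at every time. Of the 10 Tgfbr2 regions open in all lists, 7 had fewer scaled summit reads than normoxia at all 6 times and 1 had more; over all 9 genes these were 20 and 5 of 63 (31.7% and 7.94%), and over all such regions of the genome 22.1% and 21.1%. The 6 times share 1 normoxia list, so a low or high normoxia value moves all 6 ratios together. The strongest of the 7, the intron at +22.2 kb (chr9:116061683-116062713), had 130 summit reads in normoxia and 106, 165, 147, 104, 155 and 121 in hypoxia, in lists of other depth. After scaling, its log2 ratios were −0.55, −0.59, −0.40, −0.70, −0.54 and −0.50, and all 6 intervals lay below 0. The adjacent region at +21.2 kb (chr9:116062944-116063354) had the lowest mean ratio of the receptor regions, −0.81, with log2 ratios of −0.70, −0.88, −0.50, −1.17, −0.82 and −0.78, and its interval included 0 at 24 h alone. Since it was named for that low mean, its intervals are no test. The others of the 7 were the promoter, the intergenic regions at −48.3, −43.7 and −33.1 kb, and a region at +116 kb in an intron of the neighbouring gene Gadl1.

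The exception at Tgfbr2 was its last exon at +87.8 kb (chr9:115996170-115996832). It had a fold of 2.83 in normoxia and of 4.57, 5.66, 5.47, 4.49, 4.79 and 4.66 in hypoxia. The normoxia value was the lowest of the 7. On 27 to 49 reads in hypoxia and 14 in normoxia the log2 ratios were 1.03, 0.87, 0.74, 0.57, 0.65 and 0.92, and only the interval at 6 h, 0.09 to 2.04, left out 0. This exon was named for its high mean ratio, a choice for which the intervals make no allowance. Presence also changed in introns: +6.3 kb had a fold of 5.14 on 21 reads in normoxia and no hypoxia peak, whereas +15.6 kb had no normoxia peak and folds of 3.37, 4.78, 3.63, 3.47 and 2.8 at 6, 12, 24, 48 and 72 h, with none at 36 h. At the depth of the 6 h list, +6.3 kb would hold 25 reads, and the fewest at any summit of that list were 11. That minimum need not hold at the local background of this site.

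At Tgfbr1, 3 regions were missing at 6 h alone, among them an intron at +54.2 kb (chr4:47419990-47420507), chosen after its values were seen. It had a fold of 5.19 in normoxia, no peak at 6 h, and folds of 12.6, 11.9, 8.08, 6.54 and 8.23 at 12, 24, 36, 48 and 72 h. Its log2 ratios to normoxia were 1.26, 1.30, 1.10, 0.50 and 1.24 at those 5 times, on 9 normoxia reads. From the other lists 21 reads were expected at 6 h. The strongest non-promoter region, at −42.2 kb in a Col15a1 intron, was open throughout, with a fold of 12.2 in normoxia and of 10.8, 11.7, 10.6, 10.1, 9.4 and 9.2 in hypoxia. The intergenic region at −39 kb appeared at 12 to 72 h, with folds of 2.91, 2.49, 3.4, 3.95 and 3.21.

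The receptor-activated SMADs contrasted in the size of their open landscape. Smad2 had 8 regions, of which 2 were open in all lists. Its promoter (+0.055 kb, chr18:76400591-76401819) had a fold of 8.5 in normoxia and of 7.52, 9.45, 8.14, 9.28, 10.7 and 8.49 in hypoxia, and every interval of its ratio included 0. The intergenic region at −18 kb had an unscaled fold of 8.83 in normoxia and of 4.7, 14.6, 10.9, 6.52, 11.1 and 7.95 in hypoxia, lowest at 6 h and highest at 12 h. On scaled reads its log2 ratios were 0.00, 0.80, 0.33, −0.06, 0.46 and 0.35, and every interval included 0. The other 6 Smad2 regions had no normoxia peak. Each of them was listed at 12 h, the list with the most peaks.

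Smad3 had 16 intronic regions, more than any other member. Its upstream promoter (−0.146 kb) had an unscaled fold of 5.81 in normoxia and of 5.56, 8.4, 6.12, 5.51, 6.94 and 5.09 in hypoxia. On scaled reads the log2 ratios there were 0.79, 0.41, −0.58, 0.18, 0.17 and −0.10, highest at 6 h and lowest at 24 h. No counting interval is given for them. The promoter with the highest −log10 q, at an internal start (+14 kb, chr9:63591540-63592095), had a fold of 8.94 in normoxia and of 6.19, 6.98, 7.42, 5.34, 6.84 and 5.62 in hypoxia. The unscaled fold was highest in normoxia, as was the median fold of the lists. Its log2 ratios were 0.22, −0.35, −0.84, −0.79, −0.60 and −0.71, and the intervals at 24 and 36 h lay below 0. The internal start at +90.7 kb (chr9:63514764-63515543) had a fold of 8.88 in normoxia and of 2.82, 5.39, 5.27, 4.66, 7.39 and 6.53 in hypoxia. There the unscaled fold was highest in normoxia and lowest at 6 h, which was also the order of the median folds of the lists (6.23 and 4.94). On scaled reads the ratio was lowest at 12 h (−1.01), and on 11 to 25 reads each interval of the ratio included 0. The intron at +34.7 kb was listed in normoxia alone, with a fold of 3.34, and the intron at +41.6 kb in 5 hypoxia lists, with folds of 3.99, 4.13, 3.41, 5.33 and 3.15 at 6, 12, 36, 48 and 72 h.

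The common partner Smad4 had its promoter (−0.12 kb, chr18:73863192-73864083) open in every list, with a fold of 6.41 in normoxia and of 8.26, 6.67, 6.71, 6.85, 6.69 and 4.49 in hypoxia. The 6 h value was the highest and the 72 h value the lowest. The lowest mean ratio of all regions of the 9 genes, −0.84, was in the Smad4 window at −41.3 kb, in an intron of Elac1. It had a fold of 11 in normoxia and of 3.98, 7.8, 5.27, 5.59, 9.27 and 7.27 in hypoxia, and log2 ratios of −0.97, −0.93, −1.58, −1.10, −0.20 and −0.25. The intervals at 6, 12, 24 and 36 h lay below 0 and those at 48 and 72 h included it. As the region was named for its low mean ratio, these intervals are no test.

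The inhibitory Smad7 is a direct target of the pathway. Its upstream promoter (−0.92 kb, chr18:75526022-75527309) had a fold of 5.05 in normoxia and of 4.89, 3.81, 4.77, 3.92, 3.8 and 3.84 in hypoxia, with log2 ratios of −0.37, −0.69, −0.43, −0.58, −0.83 and −0.69. The summits of the lists were spread over 746 bases there, and no counting interval is given for these ratios. The promoter at its internal start (+8.16 kb, chr18:75534951-75535615) had a fold of 6.7 in normoxia and of 5.53, 5.68, 4.87, 6.7, 6.12 and 5.9 in hypoxia. Both were lower than in normoxia at all 6 times on scaled reads, and at the internal start only the 24 h interval, −1.47 to −0.17, left out 0. The intergenic region at −22.4 kb was lower at all 6 times as well, with a mean log2 ratio of −0.75. Its intervals lay below 0 at 48 h (−1.93 to −0.35) and 72 h (−2.29 to −0.47). They make no allowance for the naming of this region by its low mean ratio. The strongest Smad7 region outside promoters, at +38.3 kb, had a fold of 8.09 in normoxia and of 6.98, 9.26, 11.3, 8.98, 7.76 and 6.74 in hypoxia.

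Ratios in the paragraphs above are log2 ratios of summit reads, hypoxia over normoxia, after each list was scaled by the median over the 36113 regions open in all 7 lists, so that 0 is the middle of the genome. Each list was read at its own summit, and in wide regions these lay apart, spread over 740 bases at the Tgfbr2 promoter and 537 at the Tgfb3 promoter. Over the 63 such regions of the 9 genes the median ratio was −0.04, −0.07, −0.19, −0.15, −0.10 and −0.15 at 6 to 72 h. The intervals of the median were −0.35 to −0.09 at 24 h, −0.38 to −0.03 at 36 h and −0.31 to −0.05 at 72 h, and they included 0 at the other 3 times. They cover the spread between regions, which share lists and neighbourhoods, and are no test of a difference between conditions. With the deposited fold in place of reads the median was −0.09 at 24 h and 0.00 at 36 and 72 h. Decreases of over 2-fold numbered 0, 2, 1, 3, 2 and 2 of 63 at 6 to 72 h, where 0.681, 0.399, 1.73, 1.38, 0.95 and 2.56% of all such regions had one. Increases of over 2-fold numbered 1, 0, 1, 1, 1 and 2, where 4.49, 3.5, 4.01, 3.82, 4.16 and 5.99% of all such regions had one. The windows of Tgfb1 and Tgfb3 had positive medians of the mean ratio over the 6 times, 0.20 and 0.42, whereas those of Tgfb2, Tgfbr2 and Smad7 had negative ones, −0.32, −0.30 and −0.28, and those of Tgfbr1, Smad2, Smad3 and Smad4 lay between, at −0.02, 0.10, −0.18 and 0.06. These medians rest on few regions, 8 at Tgfb1, 4 at Tgfb3 and 2 at Smad2. In the Tgfb1 window, +2.37 kb was the sole such region whose nearest start was that of Tgfb1.

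**Figure D4:**
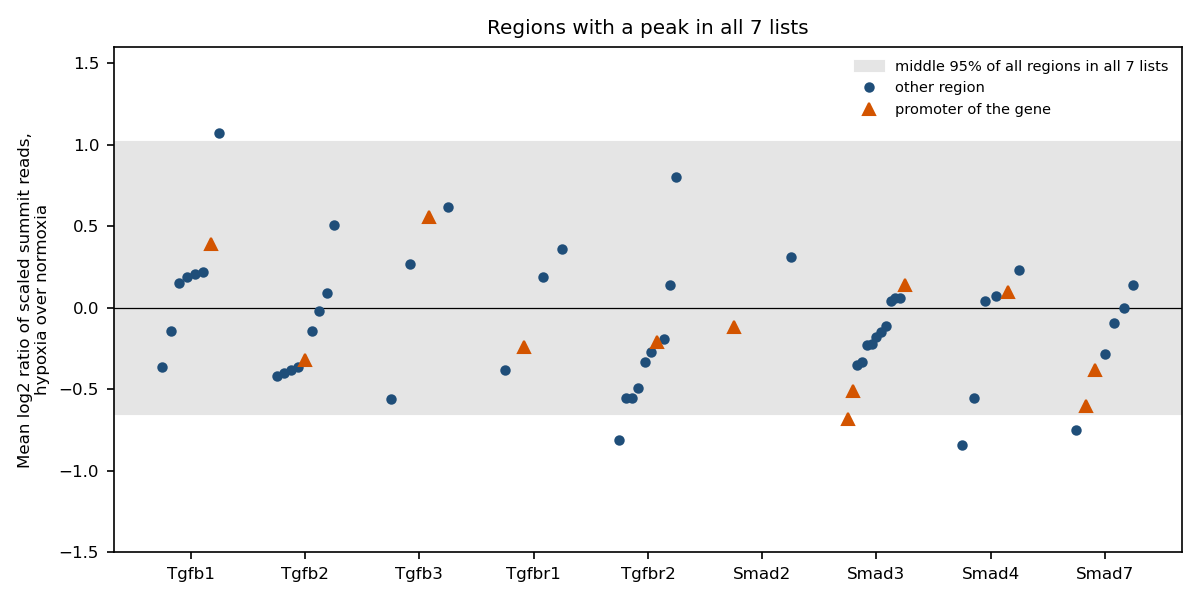
Mean log2 ratio of scaled summit reads, hypoxia over normoxia, over the 6 times, for the 63 regions of the 9 genes with a peak in all 7 lists. Triangles are promoters of the gene, circles are other regions and the grey band is the middle 95% of all regions open in every list, −0.65 to 1.02; the Tgfb1 region at 1.07 lies above it and 4 regions, of Tgfbr2, Smad3, Smad4 and Smad7, lie below it.

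Each of the 9 genes carried a promoter peak in every list, which 46.7% of all protein-coding genes did. The level at the strongest promoter of each gene was related to hours in hypoxia over the 6 hypoxia lists, by exact two-sided permutation, with Benjamini-Hochberg adjustment over the 9 relations. Pearson's r was negative for 8 genes and positive for Tgfb1 (0.562), and with the deposited fold in place of reads it turned positive for Smad2 and Smad7. The lowest p was for Smad4, with r = −0.823 (exact permutation p = 0.0389, adjusted p = 0.35) and rho = −0.771 (exact permutation p = 0.103, adjusted p = 0.231), and without the 2 times farthest from the median, 6 and 72 h, r was 0.074, so this relation rests on those lists. For Tgfb2, r was −0.725 (exact permutation p = 0.101, adjusted p = 0.369) and rho was −0.829 (exact permutation p = 0.0583, adjusted p = 0.175), and r without those times was −0.565. For Tgfb3, r was −0.534 (exact permutation p = 0.287, adjusted p = 0.37) and rho was −0.829 (exact permutation p = 0.0583, adjusted p = 0.175), and r without those times was −0.940. For Tgfbr2, r was −0.605 (exact permutation p = 0.212, adjusted p = 0.369) and rho was −0.829 (exact permutation p = 0.0583, adjusted p = 0.175), and r without those times was 0.030, so this relation too rests on 6 and 72 h. None of the 9 relations passed an adjusted p of 0.05; with 6 lists, 0.00278 is the smallest p the test can give.

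**Figure D5:**
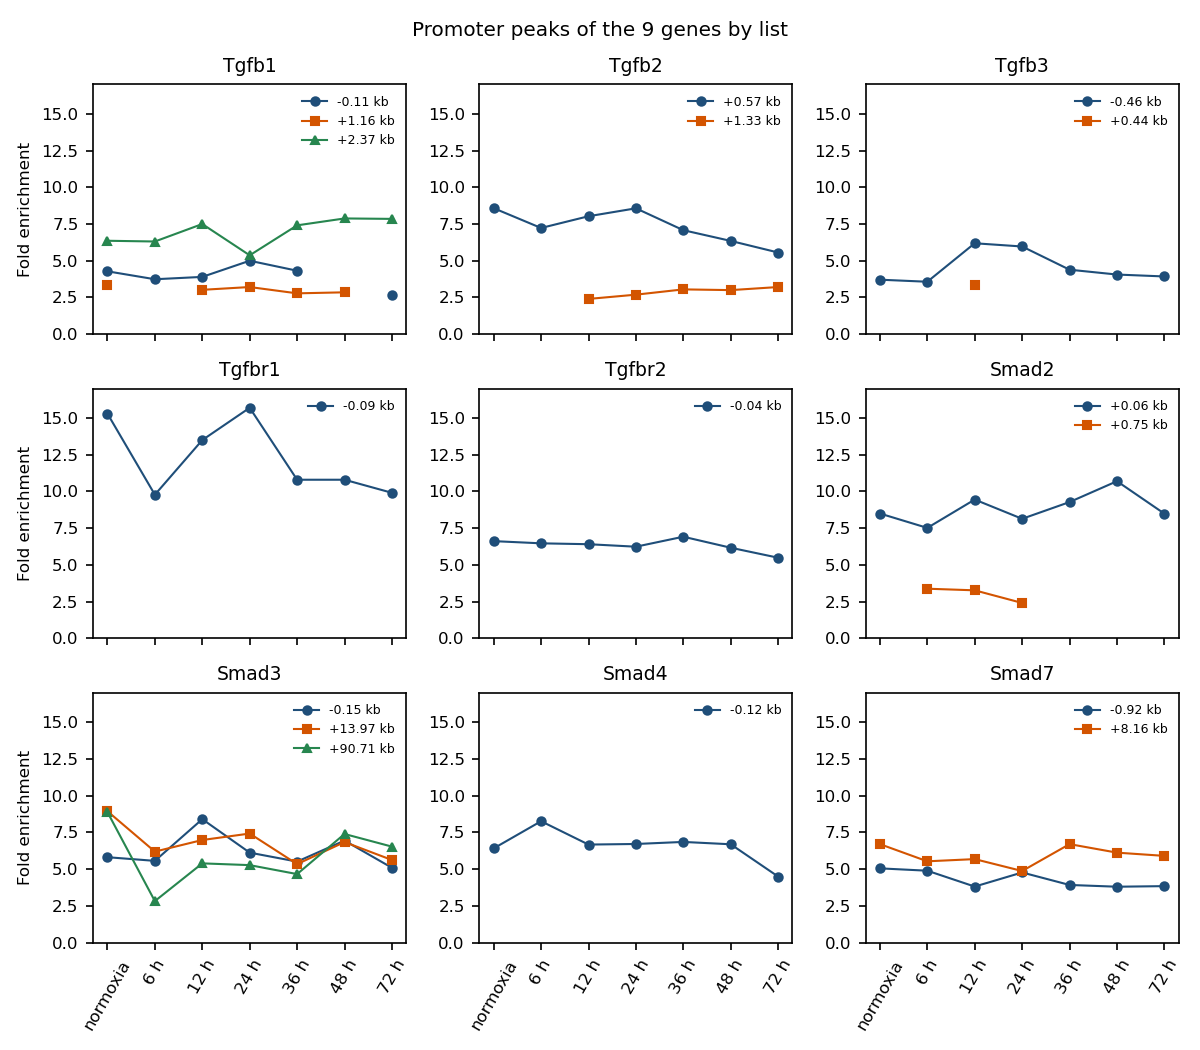
Fold enrichment at the promoter peaks of the 9 genes, 1 panel per gene, from normoxia to 72 h of hypoxia. Each line is a promoter region, named by its distance from the gene start, and a missing point is a list with no peak; Tgfbr1 has the highest values, 9.78 to 15.7, and Tgfb3 the lowest main promoter, 3.57 to 6.19.

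Beyond the 9 genes, 77 genes of the wider pathway were read for a promoter peak. It was found in all 7 lists for 50 (64.9%, exact 95% interval 53.2 to 75.5%; all genes 46.7%), and for 17 in none. Of the other receptors and co-receptors 8 of 11 were open in all lists, among them Eng, with folds of 8.44 to 12.9 in hypoxia and 10.7 in normoxia. Of the other superfamily ligands 3 of 12 were, namely Inhba, Bmp7 and Gdf11, and 8 of 12 had no peak in any list. Of 16 target genes 13 were open in all lists, including Fn1, which encodes the matrix protein fibronectin, and Snai1, a repressor of epithelial genes. Among 14 negative regulators 10 were, including the co-repressor Ski, with folds of 10.7 to 14.4 in hypoxia and 13.4 in normoxia.

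Promoter peaks appeared in hypoxia without a normoxia peak for 5 of the 77 genes (6.49%; all genes 6.61%). Mmp14, a membrane protease that can release latent TGF-beta, had weak peaks at 12, 24, 36, 48 and 72 h, with folds of 2.33, 2.4, 2.51, 2.05 and 2.4. Col1a1, which encodes a collagen chain, had folds of 3.59, 4.22, 4.04, 4.83 and 4.26 at the same times. Tgfbi, a secreted matrix protein induced by TGF-beta, had folds of 4.07, 3.21 and 2.6 at 12, 24 and 48 h. Itgb6, a subunit of an integrin that activates latent TGF-beta, had folds of 4.22 and 3.69 at 24 and 48 h, and Smad9 had a fold of 4.05 at 36 h alone. Peaks present in normoxia were missing at 1 or more times for 5 other genes (6.49%; all genes 4.43%): Inhbb and Mmp9 at 6 h, Tgif2 at 36 h, Tab1 at 72 h, and Fst, which encodes the activin antagonist follistatin, at 6, 36 and 72 h.

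Motif matches were counted within 100 bases of the summit of all 153 regions and of all 108795. AP-1 letters, on either strand, were in 41.8% of the regions of the 9 genes and in 37.5% of all regions. TEAD letters were in 24.2% against 16.5%. For the SMAD box CAGACA the shares were 15% and 19.6%, and the palindrome GTCTAGAC was in none of the 153 and in 0.201% of all regions. HIF letters were in 11.1% and 11.3%, RUNX in 21.6% and 20.7%, CEBP in 6.54% and 8.73%, ETS (CCGGAAG) in 3.92% and 2.75% and CTCF in 0.654% and 1.29%, and the NFI palindrome was in none of the 153 and in 0.0496% of all. No test was made of these shares.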

How the data were processed

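Bulk ATAC-seq libraries of 4T1 cells (14 samples, 7 groups of 2) were compared as 7 peak lists. Per the submitters' notes and the study's methods, the authors aligned paired reads to mm9 with Bowtie2 2.1.0, removed duplicates with Picard 1.79, pooled the replicates of a group and called peaks with MACS2, version not given in the sources used here. The deposited fold column is the ratio of summit reads to local background. The deposited −log10 p and −log10 q columns test the summit against that background. The lowest deposited −log10 q was 1.3 to 1.31, the level of a q of 0.05, which is looser than the threshold the study's methods give for bulk samples. The deposited score column, 10 times that −log10 q as a whole number, was not used. No list was scaled to another by the authors, and replicate values are not analysed here.

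Where an interval had several summits, the highest −log10 q stood for it. Summit reads were recovered as the whole number that gives both the deposited fold and −log10 p (largest error 0.000352). Ratios used reads scaled by the median over regions in all 7 lists. Intervals of ratios were exact binomial, those of medians came from order statistics and those of shares were Clopper-Pearson, all at 95%. Those of ratios and shares cover counting error only. Those of medians cover the spread between regions, taken as independent although they share lists and neighbourhoods. Genes and sequence came from GENCODE vM1 on NCBIM37, the assembly of mm9. Recovery of reads, regions, motifs and the permutation test were tested on simulated data.

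The genes, lists and motifs were chosen with earlier results of these data known. Named regions were each gene's promoter with the highest mean −log10 q and strongest other region, all in 5 or 6 hypoxia lists and not in normoxia, the 5 strongest in normoxia with 0 or 1 hypoxia list, and the 4 highest and 4 lowest mean ratios. Alternatives were −log10 q of 2 or 5, the 20000 strongest peaks, windows of 10 kb or the gene body, nearest start, merging within 200 bp, 50% overlap, promoters of 5 kb, the deposited fold or reads over genome background in place of scaled reads and leaving out each hypoxia list. Versions were scipy 1.17.1, matplotlib 3.10.9, pandas 2.3.3 and numpy 2.4.6, under Python 3.11.15.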

Additional observations from a re-analysis of the deposited data

How the results depend on the processing

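No paired analysis was possible because each list pools both replicates of its group; for the same reason no replicate could be left out. Of 290 values recomputed under an alternative, 257 were counted as unchanged, 28 as moved and 5 as reversed. Unchanged meant within the interval or count range of the reported value. For Pearson's r with hours, which has no such range, it meant only that the sign was kept. With −log10 q of 5 or more, 14.6% of regions were gained at 24 h. With the 20000 strongest peaks of each list, the 9 genes had 46 regions, 0 of them listed at every hypoxia time but not in normoxia; gains were 18.4, 11.4, 13.9 and 16.2% at 6, 12, 24 and 48 h, losses were 17.1, 22.2, 21.6 and 24.3% at 12, 24, 48 and 72 h, and 5 of the 9 genes kept a promoter peak at 24 h. At equal list length, gains at 6 h were thus higher than at 12 h, the reverse of the order with all peaks. The gene bodies alone held 65 regions and windows of 10 kb held 84. The median log2 ratio at 6 h was 0.08 in the gene bodies, and in windows of 10 kb it was 0.06, 0.03, −0.07 and 0.12 at 6, 12, 24 and 48 h. With the deposited fold in place of reads it was 0.19, −0.09, 0.00 and 0.00 at 6, 24, 36 and 72 h. Over the genome background it was −1.60, −0.48, −0.61, −1.04, −0.76 and −1.20 at 6 to 72 h, where the median of all regions moved to −1.55, −0.40, −0.43, −0.88, −0.66 and −1.06. The difference from all regions was −0.05, −0.07, −0.18, −0.15, −0.10 and −0.14. Both scalings divide a whole list by 1 constant, so this difference was bound to match the main result and is no separate check. The decrease over the 9 genes is therefore small, and its sign depends on the measure and the window at 6 h and on the window at 12 and 48 h; the cause was not tested.

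With the deposited fold, Pearson's r with hours turned positive for Smad2 (0.382) and Smad7 (0.237). Leaving out each hypoxia list in turn gave 1.96 to 3.92% for regions listed at each remaining hypoxia time but not in normoxia, 2.61 to 4.58% for normoxia alone, and r of 0.374 to 0.671 for Tgfb1, −0.917 to −0.565 for Tgfb2, −0.947 to −0.377 for Tgfb3, −0.697 to −0.401 for Tgfbr1, −0.805 to −0.359 for Tgfbr2, −0.938 to −0.345 for Smad2, −0.766 to −0.361 for Smad3, −0.882 to −0.435 for Smad4 and −0.538 to 0.163 for Smad7. Peaks on 5 to 11 reads are near the limit of calling, and absence from a list is not absence of accessible DNA.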
